A study of Mus musculus with 33 samples.

Results

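The cytosolic ribosomal protein genes were followed across 33 subcutaneous mouse prostate tumours in 4 treatment groups. They were taken as the protein-coding genes whose symbol is a ribosomal protein name of the cytosolic large subunit, the small subunit or the P stalk, and whose level reached 0.5 FPKM (fragments per length of exon, scaled to sequencing depth) in at least 5 tumours. Of 81 genes that fitted the name and the type, 78 passed the level, 47 of the large subunit and 31 of the small one, among 15846 genes tested and 48795 listed. All 78 reached 0.5 FPKM in all 33 tumours.

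Cytosolic ribosomes translate nearly all cellular messages, and their proteins are assembled on ribosomal RNA in the nucleolus and exported as the separate subunits. Messages for ribosomal proteins begin with a run of pyrimidines, the terminal oligopyrimidine (TOP) tract, through which mTORC1 and the binding protein Larp1 control their translation and stability. MYC, which drives this tumour model, raises transcription of ribosomal protein genes, ribosomal RNA and assembly factors.

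The tumours came from Myc-CaP cells, a prostate cancer line from a mouse that carries a MYC transgene, injected on both flanks of male FVB mice. Dosing began at 50 mm3 and lasted 3 weeks. The groups were ESK981 alone (8 tumours), ESK981 with anti-PD-1 (8 tumours, called the combination here), anti-PD-1 alone (7 tumours) and vehicle (10 tumours), each from 5 mice. ESK981, an oral multi-kinase inhibitor, was given at 15 mg/kg on 5 days a week, and the checkpoint antibody anti-PD-1 at 200 µg per mouse 3 times a week, with oral vehicle and an isotype antibody as the controls of the study; ages and which groups received the isotype antibody are not given in the labels used here. For the main tests, tumours of 1 mouse were averaged on the log2 scale, so n = 5 mice per group. Levels given per mouse in FPKM are plain means over its tumours, and ranges given over tumours count each tumour.

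Library depth was worked out from the FPKM values of genes with a known exon length. It was 18081400 to 32439000 fragments for ESK981, 17832000 to 24812300 for the combination and 11317300 to 24191100 for anti-PD-1, against 9901150 to 18353800 for vehicle. The 23 treated tumours and vehicle 5R (mouse 5, right flank) ran on the second flow cell and the other 9 vehicle tumours on the first, so treatment and flow cell cannot be told apart in comparisons with vehicle. Ribosomal RNA-like genes held 15043 to 86387 FPKM in ESK981 tumours, 19591 to 500377 in the combination and 36276 to 179159 in anti-PD-1 tumours, against 127087 to 240279 in vehicle tumours. The combination tumour 5R held the highest of these values. Epithelial markers fitted the label only in part: Krt8 averaged 22.7 FPKM in ESK981, 18.3 in the combination and 21.9 in anti-PD-1 mice, against 26.0 in vehicle mice, while Epcam averaged at most 0.06 FPKM in any group. Of 8 listed epithelial markers 4 were tested. Under ESK981 3 of the 4 lay above 0 and 1 was called higher, beside 8.95% of all genes. Summed levels over the 8 were 96.3 to 228 FPKM in ESK981 and 81.9 to 132 in combination mice. They were 91.7 to 146 FPKM in anti-PD-1 mice, against 69.6 to 136 in vehicle mice.

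The members spanned nearly 3 orders of magnitude. Mean FPKM over the 20 mice was highest for Rps12 (777) and for Rplp1 (773), which with Rplp2 forms the stalk dimers that recruit translation factors. Rps26, Rpl4, the stalk base Rplp0, Rps24, Rpl17, Rpl23a, Rpsa and Rps15 followed at 594 down to 355 FPKM, and these 10 genes held 36.1% of the summed level. Rpl24 was lowest at 1.18 FPKM, with a median of 24 fragments, and Rpl6l, a gene named for its likeness to Rpl6, came next at 3.25 FPKM. Rpl13a (12.9 FPKM), Rpl35a (17.0 FPKM) and Rpl29 (23.2 FPKM) completed the lowest 5. These values are divided by the full annotated exon length of a gene, which is 3526 bases for Rpl35a against a coding length of 330 bases, so an order between genes carries the annotation with it.

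**Figure D1:**
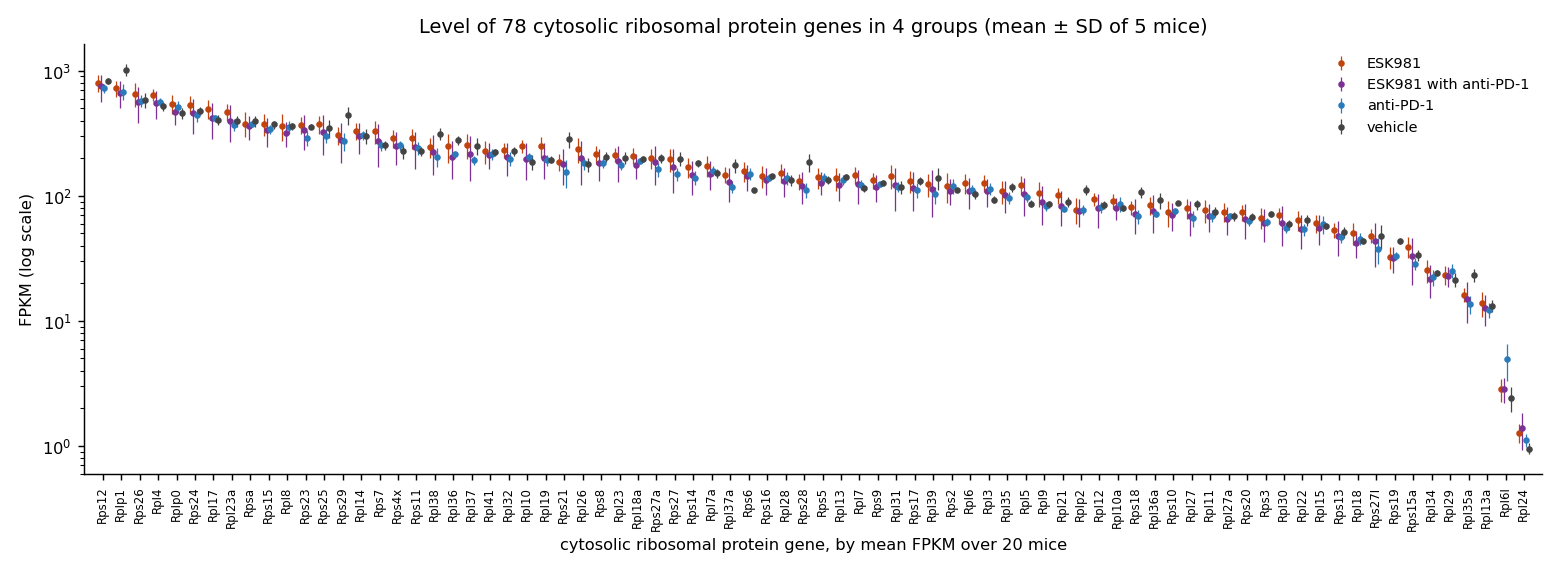
Level of the 78 cytosolic ribosomal protein genes, in FPKM on a log scale, ordered by the mean over 20 mice; points are means of 5 mice and bars are SD, for ESK981, the combination, anti-PD-1 and vehicle. Rpl6l stands highest in anti-PD-1 mice (4.91 FPKM, against 2.42 in vehicle mice), and Rps29, Rps21, Rps28 and Rplp1 stand highest in vehicle mice.

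Processed copies of ribosomal protein genes are abundant in mammalian genomes, and reads can be shared between a gene and its copies. The files listed 258 pseudogenes named after 57 of the members. Averaged over all tumours, the named copies of Rps2 summed to 180 FPKM, above the 115 FPKM of Rps2 itself. By named copies it was the 1 member for which this was so. Copies of Rpl34 summed to 22.7 FPKM beside 23.6 FPKM for the gene. Copies of Rpl38 summed to 95.7 FPKM beside 256 FPKM for the gene, and copies of Rpl3 to 51.0 FPKM beside 111 FPKM for Rpl3. Levels of such members are uncertain, but by how much was not measured. Each level is divided by its own exon length, so these sums do not give the share of reads in doubt. Copies listed under other names were not counted, also for members without a named copy.

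The 3 genes that fell short of the level are paralogues known mainly from muscle or testis. Rpl3l, which replaces Rpl3 in striated muscle, had 0.092 to 0.269 FPKM in ESK981 mice, 0.111 to 0.262 in combination mice and 0.066 to 0.514 in anti-PD-1 mice, against 0 to 0.764 in vehicle mice. Its highest values, in vehicle mouse 2 and anti-PD-1 mouse 3, stood beside summed skeletal muscle marker levels of 201.8 and 58.7 FPKM, the highest of their groups, while combination mouse 3, with 69.1 FPKM of these markers, had 0.155 FPKM of Rpl3l; the part of muscle in these values was not tested. Rpl39l, a testis paralogue of Rpl39, reached 0.5 FPKM in 3 tumours, and Rpl10l, the testis paralogue of Rpl10, was listed at 0 in 19 of 20 mice. The paralogue Rps27l, a p53 target in human cells, passed the level and averaged 47.8 ± 6.0 FPKM in ESK981, 43.7 ± 16.9 in combination and 37.2 ± 8.9 in anti-PD-1 mice, against 48.0 ± 10.2 in vehicle mice (SD, n = 5 each). The anti-PD-1 difference of Rps27l did not pass the test (log2 −0.37 ± 0.23 SE, limma adjusted p = 0.49).

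The summed level of the 78 genes overlapped between all groups. It was 14830, 13088, 14277, 19506 and 16534 FPKM in the 5 ESK981 mice and 17256, 12145, 12522, 18156 and 8738 FPKM in the 5 combination mice. It was 12915, 13523, 14422, 12673 and 14612 FPKM in the anti-PD-1 mice, against 15824, 13818, 16704, 14598 and 15070 FPKM in the vehicle mice. The lowest sum was that of combination mouse 5, whose tumour 5R had the highest ribosomal RNA-like level. The sum took 10.3 ± 0.9% of the FPKM outside ribosomal RNA-like and mitochondrial genes in ESK981 mice, 9.1 ± 1.9% in combination mice and 9.0 ± 0.5% in anti-PD-1 mice, against 8.8 ± 0.7% in vehicle mice (SD, n = 5 each).

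**Figure D2:**
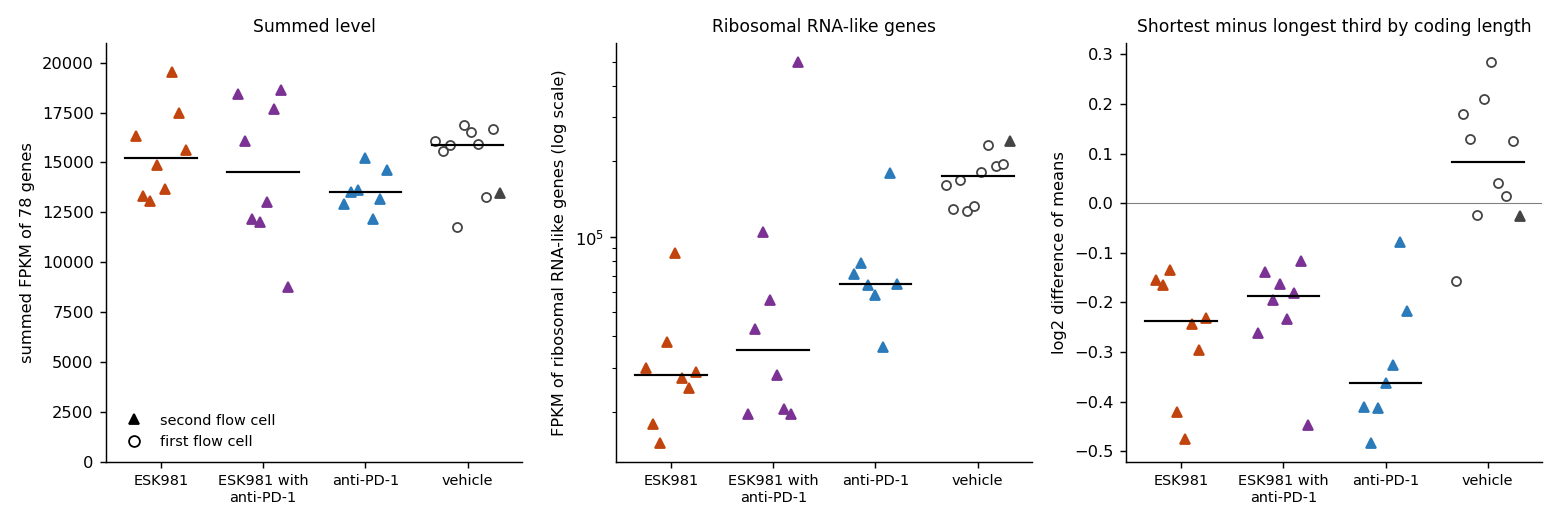
Each point is 1 tumour, a filled triangle for the second flow cell and an open circle for the first; lines are medians of tumours. The panels give the summed FPKM of the 78 genes, the FPKM of ribosomal RNA-like genes on a log scale, and the mean log2 level of the members with the shortest coding length minus that of the longest. The sums overlap in all groups, while in the third panel 9 of 10 vehicle tumours lie above every ESK981 and combination tumour.

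ESK981 against vehicle asked how the tumours of mice given the kinase inhibitor alone differed, and 2 of the 78 members did. Rps6, the small-subunit protein phosphorylated by S6 kinases, rose: it had 147, 125, 147, 196 and 178 FPKM in ESK981 mice, against 119, 106, 105, 109 and 113 FPKM in vehicle mice. Every ESK981 mouse lay above every vehicle mouse (log2 fold change 0.50 ± 0.16 SE, limma adjusted p = 0.042). Rps6 was picked as called on these values, so this separation adds nothing to the call. The stalk protein gene Rplp2 fell: it had 67.6, 57.4, 83.4, 105 and 73.0 FPKM in ESK981 mice, against 105, 117, 127, 102 and 107 FPKM in vehicle mice. ESK981 mouse 4 reached the lower vehicle values, so the groups overlapped (−0.55 ± 0.18 SE, limma adjusted p = 0.042).

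Across all 15846 genes 8.95% were called higher and 5.43% lower under ESK981, against 1 higher (1.28%) and 1 lower (1.28%) of the 78 members. The members had a median log2 fold change of 0.06 beside 0.11 for all genes tested, and ranged between −0.60 (Rps21) and 0.50 (Rps6). The sign of that median depended on the scaling: it was −0.09 under median-of-ratios scaling, with 0 members called higher and 9 lower, and −0.24 when the total left out ribosomal RNA-like and mitochondrial genes, with 0 higher and 11 lower. Of all genes 13.3% were called higher and 14.4% lower under the first of these scalings, and 3.05% higher and 17.6% lower under the second, so the members' counts of lower genes lay near those shares. Those scalings moved the median of all genes to −0.00031 and −0.12, and relative to that median the members stood at −0.05 on the deposited scale. Leaving out 1 mouse of any group gave 0 to 11 called members. The 11, 3 higher and 8 lower, came without combination mouse 5, where 16.3% of all genes were called higher and 7.59% lower, and none was called without ESK981 mouse 1 or 5, anti-PD-1 mouse 1 or 3, or vehicle mouse 2, 3, 4 or 5. With a flow cell term in the model no member was called, but that term could be estimated only from vehicle 5R set against the other vehicle tumours. Of the 2 genes Rplp2 kept its call under both other scalings while Rps6 did not (0.35 and 0.20 on the log2 scale, limma adjusted p = 0.061 and 0.36, beside a range of 0.0082 to 0.36 over the alternatives that leave out no single mouse).

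The 2 called genes are shown at their annotated starts together with Rps21 and Rpl35a, which were called lower relative to the other members in all 3 comparisons with vehicle. Each line gives 30 bases before and 20 bases from the start annotated by RefSeq on GRCm38.p6, at chr4:86857348-86857397 on the minus strand for Rps6, chr7:141447621-141447670 on the plus strand for Rplp2, chr2:180257349-180257398 on the plus strand for Rps21 and chr16:33056423-33056472 on the plus strand for Rpl35a. Capitals mark the longest run of C or T that touches the 5 bases on either side of the start.
Rps6: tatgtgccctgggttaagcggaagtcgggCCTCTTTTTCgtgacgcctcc
Rplp2: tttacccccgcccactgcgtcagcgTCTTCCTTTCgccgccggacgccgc
Rps21: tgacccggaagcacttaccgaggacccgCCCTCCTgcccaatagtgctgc
Rpl35a: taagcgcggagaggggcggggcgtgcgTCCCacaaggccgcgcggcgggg
Rps6, called higher, and Rplp2, called lower, both carry a run of 10 pyrimidines, Rps21 a run of 7 and Rpl35a a run of 4 at the annotated start. Starts of 57 members matched the table of promoter windows, and 23 of them (40.4%) had a run of at least 7, as had 13.5% of all 32851 windows in the table. The motif CCGGAAG, the core bound by ETS factors, was found on either strand in 22 of the 57 windows of 300 bases (38.6%) and in 8.86% of all windows, and the E-box CACGTG, a MYC site, in 5 of 57 (8.77%) and 7.15%. A run or motif is a match of letters in a window, whose annotated start can lie some bases from the one used in these tumours, and some genes have several windows in the table.

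ESK981 with anti-PD-1 against vehicle called no member (0 higher, 0 lower). Of all genes 0.082% were called higher and 0.524% lower. At the unadjusted level, 13 members had a limma p under 0.05, 2 higher and 11 lower, and 63 of 78 lay below 0, with a median of −0.14 beside 0.03 for all genes. Rps21, a small-subunit protein gene, had 213, 194, 169, 230 and 86.2 FPKM in combination mice, against 281, 267, 353, 240 and 281 FPKM in vehicle mice. The groups did not overlap (−0.73 ± 0.22 SE, limma adjusted p = 0.16). Rps21 was named as called lower relative to the other members in these same mice, so this is not a separate result. Under median-of-ratios scaling 9 members were called, all lower, beside 3.39% of all genes called lower. With the total without ribosomal RNA-like and mitochondrial genes 14 were called, all lower, beside 8.7% of all genes. Without combination mouse 5 there was 1, called higher, beside 1.94% of all genes called higher. The median turned to 0.12 with the flow cell term.

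Anti-PD-1 against vehicle also called no member, where 0.473% of all genes were called higher and 0.309% lower. At the unadjusted level, 12 members had a limma p under 0.05, 2 higher and 10 lower, and 52 of 78 lay below 0, with a median of −0.10 beside 0.13 for all genes. The widest positive difference was that of Rpl6l, with 5.21, 5.00, 6.97, 4.86 and 2.51 FPKM in anti-PD-1 mice, against 2.98, 2.0, 2.64, 1.68 and 2.82 FPKM in vehicle mice; only anti-PD-1 mouse 5 lay within the vehicle range (0.86 ± 0.21 SE, limma adjusted p = 0.054). Rps21, named as called lower relative to the other members in these same mice, had 112, 128, 144, 200 and 187 FPKM in anti-PD-1 mice. All lay below the vehicle values (−0.92 ± 0.22 SE, limma adjusted p = 0.055), which is not a separate result. Under median-of-ratios scaling 11 members were called, all lower, beside 1.53% of all genes called lower. With the total without ribosomal RNA-like and mitochondrial genes 8 were called, all lower, beside 0.953% of all genes. The median was 0.07 with the flow cell term. Leaving out combination mouse 5 called 1 member higher and 8 lower, beside 1.33% of all genes higher and 0.713% lower; leaving out anti-PD-1 mouse 5 called 3 members, beside 2.37% of all genes in either direction, and any other single mouse at most 1.

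The 2 comparisons of the combination with a single treatment lie within 1 flow cell, while the interaction also uses the vehicle mice, 9 of whose 10 tumours ran on the first flow cell. No member was called for the combination against ESK981 (0% of all genes called), for the combination against anti-PD-1 (0% of all genes) or for the interaction of the drug and the antibody (0.0252% of all genes). At an unadjusted limma p under 0.05 they held 0, 1 and 4 members. In the combination 76 of 78 members lay below their ESK981 level, with a median of −0.22 beside −0.09 for all genes. Without combination 5R, anti-PD-1 4R and vehicle 5R, the 3 tumours that stand apart in ribosomal RNA or mitochondrial reads, that median was −0.05, with 21 members above 0. Against anti-PD-1 the median was −0.04, and the widest difference was again that of Rpl6l, with 2.95, 2.95, 1.77, 3.60 and 2.96 FPKM in combination mice beside the anti-PD-1 values above (−0.66 ± 0.21 SE, limma adjusted p = 0.54). Without the same 3 tumours the interaction called 6 members higher and none lower, beside 1.93% of all genes higher and 2.64% lower; under the other alternatives run it called none.

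**Figure D3:**
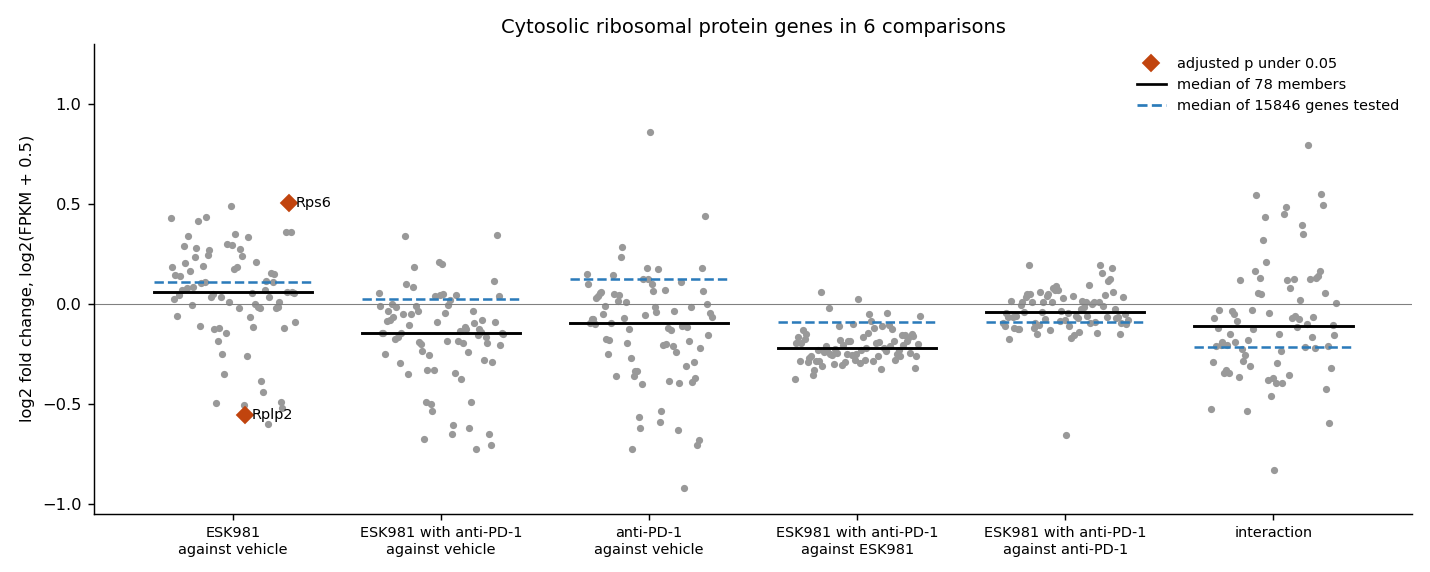
Log2 fold changes of the 78 members in 6 comparisons on the log2(FPKM + 0.5) scale, 1 point a gene; diamonds passed an adjusted p of 0.05, the solid line is the members' median and the dashed line the median of 15846 genes. Rps6 and Rplp2 under ESK981 are the 2 diamonds, and nearly all members lie below 0 in the combination against ESK981.

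The members varied less relative to each other than in level. Within groups the SD over mice of a member's log2 level had a median of 0.28, and of 0.11 once each tumour was centred on the median of the 78 members; it was smaller after centring for 77 of 78 genes. Between the 2 flanks of the 13 mice with both tumours the SD had a median of 0.19 before centring and 0.12 after it. Rpl6l varied most after centring (SD 0.37), followed by Rps27l (0.25), and Rpl27a least (0.06). The drop is partly built into centring, which removes what the members share. The centred values below give a gene's level relative to the other ribosomal protein genes and say nothing of their total. As centring narrows the members' own spread, a larger share called among members than among all genes is partly built in as well.

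Relative to the other members, 5 of 78 genes were higher under ESK981 (6.41%, beside 6.72% of all 15846 genes) and 11 were lower (14.1%, beside 5.59% of all genes). The higher genes were Rps6 (log2 0.42 ± 0.10 SE, limma adjusted p = 0.012), Rpl5, which with Rpl11 carries the small ribosomal RNA of the large subunit and can bind Mdm2 (0.41 ± 0.10, 0.011), Rpl3 near the peptidyl transferase centre (0.35 ± 0.09, 0.016), the subunit-joining protein Rpl10 (0.35 ± 0.09, 0.024) and Rpl7 (0.26 ± 0.08, 0.043). The lower genes were led by Rps21 (−0.69 ± 0.14 SE, limma adjusted p = 0.0063), the stalk pair Rplp2 (−0.64 ± 0.11, 0.0027) and Rplp1 (−0.59 ± 0.14, 0.011), Rps29 (−0.60 ± 0.12, 0.0061), Rps28 (−0.58 ± 0.11, 0.0043) and Rpl35a (−0.58 ± 0.11, 0.005). Rps19, mutated in Diamond-Blackfan anaemia in human patients, fell by 0.53 ± 0.10 SE (limma adjusted p = 0.0037), with 28.3, 24.1, 35.7, 41.4 and 33.2 FPKM in ESK981 mice, against 42.9, 44.0, 46.7, 40.4 and 44.5 FPKM in vehicle mice. Rps18, Rpl38, Rps10 and Rpl37a completed the 11. Of the 20 fits that each left out 1 mouse, Rpl7 was called in 8, Rpl37a in 10, Rpl10 in 16 and Rpl38 in 17, Rps10 and Rpl3 in 19, and the other 10 genes in all 20. For the 16 genes, which were selected as called on these same values, the centred mouse values of the groups did not overlap. The share of all genes without overlap was not worked out, so this adds nothing to the calls.

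The combination, compared with the same vehicle mice, had 1 member higher (1.28%, beside 1.89% of all genes) and 7 lower (8.97%, beside 0.713% of all genes). Rps6 was the higher one (0.48 ± 0.10 SE, limma adjusted p = 0.019), and Rps21, Rps29, Rpl35a, Rps28, Rplp1, Rps18 and Rplp2 had log2 differences between −0.59 (Rps21) and −0.47 (Rplp2). Without vehicle mouse 3 no member was called. Without combination mouse 5 there was 1 call, without combination mouse 1 or 4 there were 4, and without combination mouse 3 or vehicle mouse 2 or 5 there were 5. Over the 20 fits Rplp1 was called in 4, Rplp2 and Rps21 in 13, Rps28 in 16, and the other 4 genes in 18 or 19.

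Anti-PD-1, again with the same vehicle mice, had 3 members higher (3.85%, beside 3.31% of all genes) and 9 lower (11.5%, beside 0.593% of all genes). The higher ones were Rps6 (0.53 ± 0.10 SE, limma adjusted p = 0.0096), Rpl3 (0.38 ± 0.09, 0.026) and Rpl6l (0.94 ± 0.22, 0.025). Rps21 fell furthest (−0.83 ± 0.14 SE, limma adjusted p = 0.0052), followed by Rpl35a (−0.64 ± 0.11, 0.007) and Rps28 (−0.62 ± 0.11, 0.007). Rps29, Rps18, Rpl38, which is needed in mice for translation of Hox messages, Rplp1, Rpl37a and Rplp2 were the others. Leaving out anti-PD-1 mouse 1, 2 or 3 or vehicle mouse 3 left 5 calls, and leaving out the 3 tumours named above gave 26, 11 higher and 15 lower, beside 16.7% of all genes higher and 1.36% lower. Over the 20 fits Rplp1 was called in 8, Rplp2 in 13, Rpl38 and Rpl6l in 15, and Rps6, Rps21, Rpl35a, Rps28 and Rps18 in all 20.

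After centring, the same 3 comparisons called no member: 0 for the combination against ESK981 (0% of all genes), 0 for the combination against anti-PD-1 (0%) and 0 for the interaction (0%). At an unadjusted limma p under 0.05 they held 0, 2 and 18 members. The combination differed from ESK981 by between −0.15 and 0.22 over the 78 genes. The smallest adjusted p for the interaction belonged to Rps21 (0.93 ± 0.20 SE, limma adjusted p = 0.083). Without the 3 tumours named above the interaction called 8 members higher and 2 lower, beside 0.631% of all genes higher and 0.972% lower; without combination mouse 5 or anti-PD-1 mouse 5 it called 2, and without anti-PD-1 mouse 4 it called 1.

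**Figure D4:**
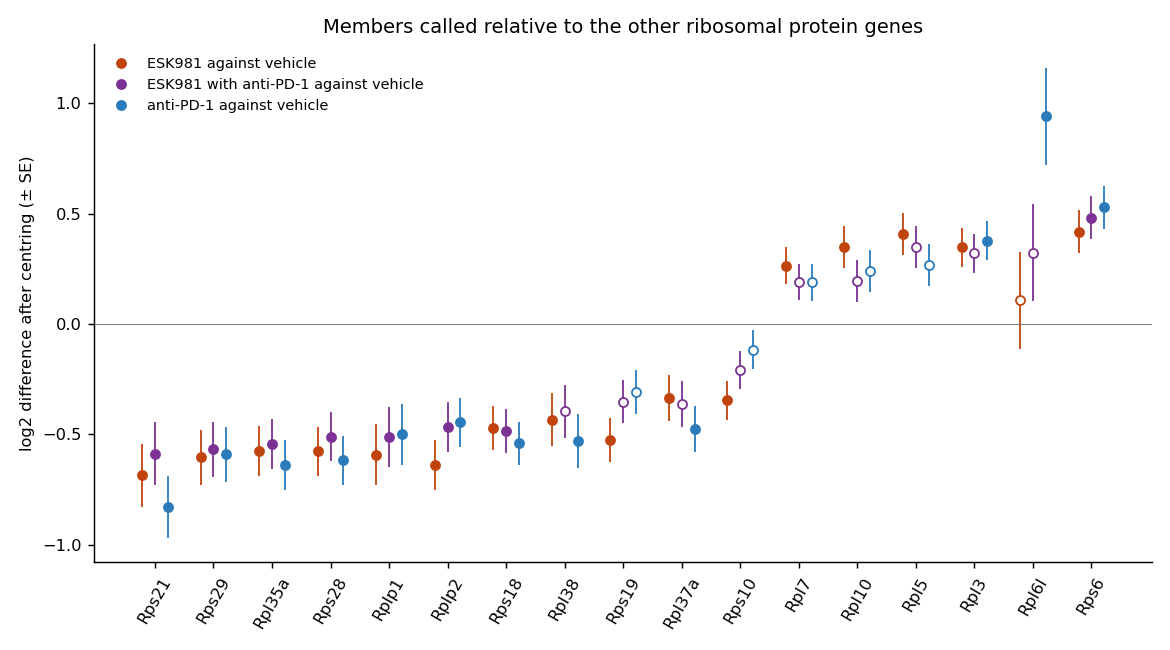
Log2 difference from vehicle (± SE) after centring each tumour on the 78 members, for the 17 members called in at least 1 of 3 comparisons; filled points passed an adjusted p of 0.05 and open points did not. Rps21, Rps29, Rpl35a, Rps28, Rplp1, Rplp2 and Rps18 lie below 0 and Rps6 above 0 for all 3 treatments, which share 1 set of vehicle mice.

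Rps28 shows the size of these differences in FPKM. It had 129, 123, 109, 162 and 129 FPKM in ESK981 mice, 149, 121, 117, 151 and 65.0 FPKM in combination mice and 101, 97.4, 109, 117 and 136 FPKM in anti-PD-1 mice, against 178, 170, 237, 164 and 179 FPKM in vehicle mice. Rps29 had 254 to 390 FPKM in ESK981, 137 to 374 in combination and 232 to 340 in anti-PD-1 mice, against 394 to 572 FPKM in vehicle mice. Rplp1 had 592 to 880 FPKM in ESK981, 402 to 815 in combination and 543 to 766 in anti-PD-1 mice, against 891 to 1179 FPKM in vehicle mice. For all of these the lowest vehicle mouse lay above the highest mouse of each treated group, by a narrow gap for Rps29 under ESK981 (390 against 394 FPKM). These genes were chosen as called lower on these same mice, so the lack of overlap adds nothing to the calls.

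Most of the lower genes encode short proteins and most of the higher ones longer proteins. A principal coding transcript was found in GENCODE M21 for 77 members, all but Rpl6l, and they were split, after their values had been seen, into the 25 shortest (coding length 75 to 396 bases), 27 middle and 25 longest (576 to 1257 bases). Of the genes called lower after centring, the shortest held 8 of 11 under ESK981, 6 of 7 in the combination and 8 of 9 under anti-PD-1; the longest held none of them. All 5 genes called higher under ESK981 were among the longest. The median centred difference of the shortest was −0.15, −0.14 and −0.25 for ESK981, the combination and anti-PD-1 against vehicle, and that of the longest 0.10, 0.12 and 0.15. Across the 77 genes Spearman's rho between coding length and the centred difference was 0.56, 0.62 and 0.75, with Pearson's r of 0.54, 0.56 and 0.65 on log2 length, as a description of genes that share libraries and the same vehicle mice. Rpl41, the shortest at 25 codons, went against this with 169 to 299 FPKM in ESK981 mice, 142 to 268 in combination mice and 185 to 243 in anti-PD-1 mice, against 205 to 245 FPKM in vehicle mice.

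**Figure D5:**
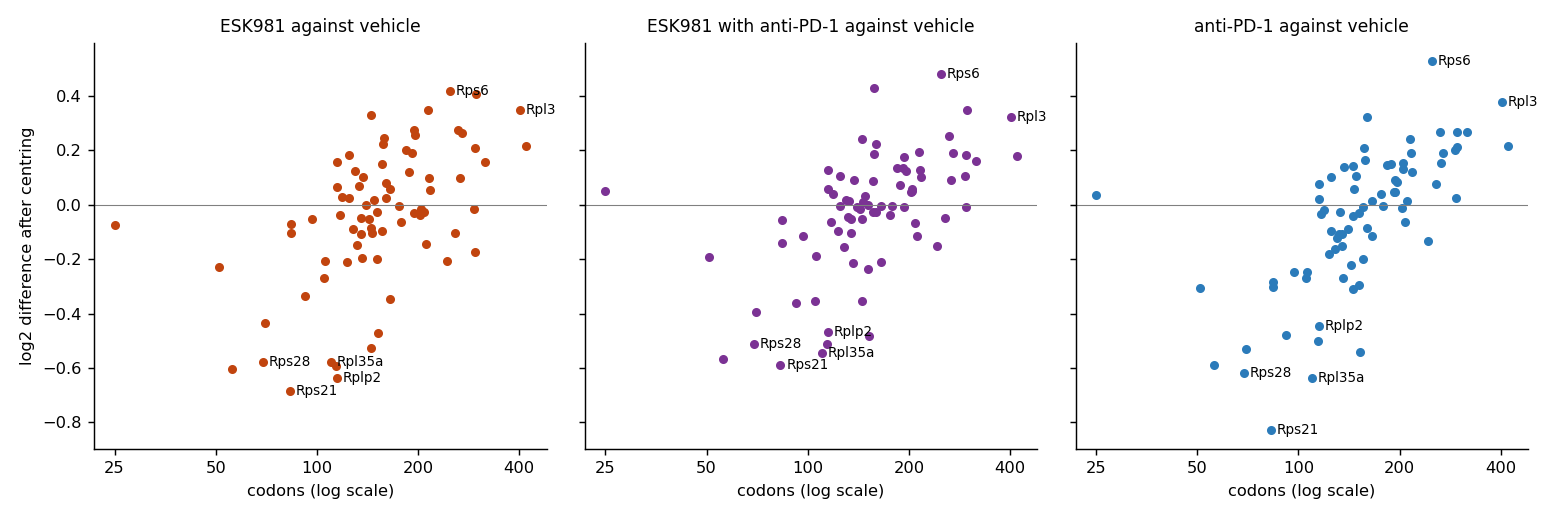
Coding length in codons (log scale) against the log2 difference from vehicle after centring, for 77 members, with 1 panel for each treatment. Rps21, Rps28, Rpl35a and Rplp2 lie low among the short genes, Rps6 and Rpl3 high among the long ones, and Rpl41 at 25 codons lies near 0.

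Measured tumour by tumour, the mean log2 level of the 25 shortest minus that of the 25 longest ran between −0.47 and −0.13 in ESK981 tumours, between −0.45 and −0.12 in combination tumours and between −0.48 and −0.08 in anti-PD-1 tumours. It ran between −0.16 and 0.29 in the 9 vehicle tumours of the first flow cell and was −0.03 in vehicle 5R, the vehicle tumour on the second flow cell. By centred values, vehicle 5R lay nearer the other vehicle tumours' median than the treated median for 8 of the 11 genes called lower. The same held for 4 of the 6 called higher. Still by centred values, it lay within the range of the other vehicle tumours for 8 of 11 and 6 of 6. It also lay within the centred range of the treated tumours for 7 of the 11 and 3 of the 6. In FPKM it lay within the treated range for all of these genes but Rps19. It lay within the FPKM range of the other vehicle tumours for all but Rplp1 and Rplp2. For Rplp1 it had 771 FPKM, inside the 402 to 916 FPKM of the treated tumours and below the 786 to 1194 FPKM of the other vehicle tumours. For Rps19 it had 41.7 FPKM, above the 19.5 to 41.4 FPKM of the treated tumours and within the 37.4 to 47.7 FPKM of the others. Vehicle 5R is 1 tumour and was part of the fits that called these genes, so its place is not a separate test.

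Protein-coding genes outside the members and outside the ribosomal RNA-like and mitochondrial genes were set in the same length classes. The 669 genes as short as the shortest members had a median log2 fold change of −0.01 under ESK981, −0.13 in the combination and −0.06 under anti-PD-1, against vehicle. The 6188 genes longer than any member had 0.12, 0.03 and 0.14. These medians share the vehicle mice. Under ESK981 7.92% of the short and 4.82% of the longest were called lower. Flow cell and treatment cannot be told apart in the members' pattern.

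Among ribosomal protein genes outside the naming rule, Rps3a1 averaged 549 FPKM in ESK981 mice, against 457 FPKM in vehicle mice. Fau, whose product is a ubiquitin-like protein fused to a small-subunit protein, averaged 242 FPKM in ESK981 mice, against 254 FPKM in vehicle mice. The small-subunit scaffold Rack1 averaged 87.1 FPKM in ESK981 mice, against 97.7 FPKM in vehicle mice. None of these 3 passed a comparison with vehicle on the FPKM scale. Of all 7 such genes tested, 1 was called lower under ESK981, 1 in the combination and 0 under anti-PD-1. The shares of all genes called lower were 5.43%, 0.524% and 0.309%. None was called higher. The lowest log2 fold change was −1.13 under ESK981 and −1.13 in the combination. After centring on the members, 2, 1 and 1 were called lower in these 3 comparisons, beside 5.59%, 0.713% and 0.593% of all genes.

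On the FPKM scale the other lists of genes around the ribosome held 5 called genes outside mitochondria. All 5 were higher under ESK981, where 8.95% of all genes were called higher. Of 16 other messages with a TOP tract, all 16 lay above 0 under ESK981 with a median of 0.27, and 1 passed: the initiation factor gene Eif3e with 85.3 ± 12.4 FPKM in ESK981 mice, against 57.1 ± 5.4 in vehicle mice (0.57 ± 0.19 SE, limma adjusted p = 0.048). Their medians were 0.06 in the combination and 0.15 under anti-PD-1, with none called on the FPKM scale. The lists of 17 initiation factors, 17 genes of RNA polymerase I and ribosome assembly, 11 chaperones of ribosomal proteins and 12 proliferation genes followed. None of these genes was called on the FPKM scale in any comparison with vehicle. The medians of these lists under ESK981 were 0.27, 0.13, 0.24 and −0.27. Of 13 regulators of TOP messages and mTORC1, Larp4 (0.84 ± 0.23 SE, limma adjusted p = 0.021) and Rictor (0.61 ± 0.14, 0.0086) rose under ESK981. Of 7 tested quality control genes, Nemf (0.65 ± 0.17, 0.019) and Ltn1 (0.49 ± 0.16, 0.041), which act together on stalled large subunits, rose under ESK981. Of 76 mitochondrial ribosomal protein genes 2 rose and none fell under ESK981 (median 0.09), none was called in the combination (−0.02) or under anti-PD-1 (0.02). After centring on the members, ESK981 had 2 other TOP messages, 3 regulators, 2 quality control genes and 1 initiation factor called higher. In that comparison 1 ribosome assembly gene was lower, beside 6.72% of all genes higher and 5.59% lower. The combination had 2 regulators higher (1.89% of all genes). Anti-PD-1 had 2 TOP messages, 1 regulator, 1 chaperone and 1 quality control gene higher (3.31%). Mitochondrial genes had 1 higher and 1 lower under ESK981. Myc itself had 5.92 ± 1.34 FPKM in ESK981, 4.49 ± 1.08 in combination and 5.91 ± 1.83 in anti-PD-1 mice, against 7.0 ± 2.36 in vehicle mice, and passed no comparison with vehicle (the smallest limma adjusted p was 0.30).

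Many ribosomal protein genes carry small nucleolar RNAs, guides of ribosomal RNA modification, in their introns. The annotation placed 56 of them on the sense strand within 29 members, and 33 in 16 members could be tested. Under ESK981 4 rose and 3 fell, where 8.95% of all genes were called higher and 5.43% lower. Their median log2 fold change was 0.34 beside 0.07 for their hosts. The combination and anti-PD-1 had medians of 0.31 and 0.29, with 1 lower and none higher in each, beside host medians of −0.12 and −0.08. Of all genes 0.524% were called lower in the combination and 0.309% under anti-PD-1. As they lie on the strand of their hosts, their reads cannot be told apart from those of host introns.

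Some markers of other cell types moved under ESK981, where 8.95% of all genes were called higher and 5.43% lower. Under ESK981 4 of 6 tested immune markers fell, with summed levels over 7 markers of 69.8 to 115 FPKM in ESK981 mice, against 127 to 492 FPKM in vehicle mice, and 4 of 5 fibroblast markers fell, with sums of 36.1 to 52.6 FPKM in ESK981 mice, against 66.1 to 484 FPKM in vehicle mice. Of 3 tested red cell markers 1 rose, with sums over 5 markers of 13.9 to 58.7 FPKM in ESK981 mice, against 9.13 to 12.9 FPKM in vehicle mice. Of 4 endothelial markers Cdh5 rose under ESK981 (1.17 ± 0.26 SE, limma adjusted p = 0.0082), and no skeletal muscle (8) or keratinocyte (2) marker was called. No marker of these lists was called in the combination or under anti-PD-1. In bulk tumours fewer cells of a type and less RNA per cell cannot be told apart, and the part of cell composition in the members' levels was not tested.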

How the data were processed

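The authors deposited 1 table of FPKM values per gene for 33 Myc-CaP tumours. STAR and featureCounts on mm10 are named in the submitters' processing notes; the sources used here give no versions, annotation or strand setting. The library kit removes ribosomal RNA, per the labels' protocols. Counts are not in the table; library depth was worked out from the FPKM steps of 41427 genes whose identifier and version matched GENCODE M21, and no count model was used.

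Genes at 0.5 FPKM or more in at least 5 tumours were tested (15846). Values were taken as log2(FPKM + 0.5), which understates changes of low genes, and averaged over the tumours of a mouse: 13 mice gave 2 tumours and 7 gave 1. The 20 mice were fitted with limma 3.58.1 in R 4.3.3 (4 groups, intensity trend, 16 residual degrees of freedom), with Benjamini-Hochberg adjustment over all genes and a threshold of 0.05. A further fit used tumours centred on the members' median. The fit was checked on simulated data. Animals were labelled as separate mice.

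Named members were the 10 highest and 5 lowest, up to 5 called in each direction per comparison, and a list of paralogues, stalk and other genes; Rpl37a, Rps10, Rpl41, Rpl27a, Rpl34 and Rps2 were named after their values were seen. The members, lists and length classes were chosen with earlier results of these data known. Alternatives were another pseudocount, no filter, 2 other scalings, single tumours, a flow cell term, and leaving out libraries or mice. RefSeq promoter windows were read as given. Some results for genes outside the members are not reported here.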

Additional observations from a re-analysis of the deposited data

Results flagged for a closer look

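Among 140 sets of 5 mouse values (34 named members and the summed level, in 4 groups), 4 held a mouse set apart from the other 4 by a gap of more than 0.71 of the group's range, where chance flags about 1 set in 20. Rps29 in vehicle mouse 3 stood at 572 FPKM, above the 394 to 418 FPKM of the other vehicle mice (gap 0.864 of the range), and Rps28 in the same mouse at 237 FPKM (gap 0.799). Vehicle mouse 3 also held the highest difference between short and long members of the 20 mice, 0.25, against 0.01 to 0.05 in the other vehicle mice. Rpl23a in anti-PD-1 mouse 5 stood at 437 FPKM (gap 0.755), and Rps26 in anti-PD-1 mouse 4 at 471 FPKM, below the others (gap 0.730). No interaction of ESK981 and anti-PD-1 passed the test for a member with all tumours in the fit.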

How the results depend on the processing

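Called members under ESK981 against vehicle numbered 2, and 9 under median-of-ratios scaling, 11 with the total without ribosomal and mitochondrial RNA, 9 over single tumours, 12 without the 3 tumours combination 5R, anti-PD-1 4R and vehicle 5R, 1 without ESK981 1R and 2R, and 0 with no filter or with a flow cell term. Leaving out 1 mouse gave 0 to 11. The flow cell term could be estimated only from vehicle 5R set against the other vehicle tumours, so it rests on 1 tumour. A fit on the second flow cell alone, chosen after seeing the data, has vehicle 5R as its only vehicle tumour, so its count is not given. The combination against vehicle had 0 called, and 9, 14, 1 and 6 under median-of-ratios scaling, with the reduced total, over single tumours and without the 3 tumours; 1 mouse left out gave 0 to 1. Anti-PD-1 against vehicle had 0, and 11, 8, 3 and 13 under those 4 settings, and 0 to 9 with 1 mouse left out. Under the same 4 settings the share of all genes called in either direction was 27.7%, 20.6%, 20.7% and 30.3% for ESK981. It was 6.73%, 9.16%, 1.05% and 9.22% for the combination. For anti-PD-1 it was 2.32%, 1.21%, 0.928% and 11.2%. The combination against anti-PD-1 had 0, and 0 to 1 with 1 mouse left out. The interaction had 0, and 6 without the 3 tumours, beside 4.58% of all genes. After centring, anti-PD-1 against vehicle had 12 and 26 without the 3 tumours, and 5 to 14 with 1 mouse left out; ESK981 against vehicle had 16 and 11 to 18; the combination had 8 and 0 to 11; the interaction had 0, 10 without the 3 tumours, and 0 to 2. The members' median under ESK981 was −0.24 with the total without ribosomal and mitochondrial RNA, that of the combination 0.12 with the flow cell term, and that of the interaction 0.15 and 0.17 under the other scalings. No called member whose value was followed changed direction under any alternative run. Why these counts differ was not tested. Rpl24, with a median of 24 fragments, is limited by depth; other members with a known exon length had medians of 690 to 17184 fragments.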
